A study of Homo sapiens with 6 samples.

Results

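The ZBTB, ZSCAN and ZKSCAN genes were taken from an array table by symbol alone, as every target whose symbol is ZBTB, ZSCAN or ZKSCAN followed by a digit. The rule found 51 of 37879 targets, made up of 34 ZBTB, 12 ZSCAN and 5 ZKSCAN genes, and used no measured value. HEK293T cells, a human embryonic kidney line that carries the SV40 large T antigen, were transfected with an empty vector (3 control IPs) or with a plasmid coding for Stau155-FLAG (3 Stau1 IPs), a tagged form of the double-stranded RNA-binding protein Staufen1 (Stau1) under a Rous sarcoma virus promoter. Cells of both groups received nocodazole, a microtubule poison that holds cells in prometaphase, at 50 ng/ml for 15 h, and both groups were immunoprecipitated (IP) with the same anti-FLAG antibody. The co-purified RNA was hybridized to 6 Illumina BeadChips, 1 per IP. The comparison therefore asks which transcripts were recovered more or less, relative to the other targets, when tagged Stau1 was present. The arrays were normalized to a common distribution, so a difference in the total RNA recovered would not show. RNA from the inputs was not analysed here, and the amount of a transcript in the cells and the share of it recovered in the IP therefore cannot be told apart.

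Proteins of these families bind DNA through C2H2 zinc fingers and differ in the domain at the other end. ZBTB proteins carry a BTB domain, through which they pair with each other and recruit corepressors such as NCOR1 and BCOR, and some of them the ubiquitin ligase scaffold CUL3. ZSCAN proteins carry a SCAN domain, a leucine-rich module for pairing between family members, and ZKSCAN proteins add a KRAB domain, which recruits the corepressor TRIM28 and the histone methyltransferase SETDB1. A symbol rule also admits a gene that is named for its position: ZBTB8OS, on the opposite strand of ZBTB8, encodes archease, a cofactor of the tRNA ligase complex, and no zinc finger factor. It was kept among the 51 by the rule.

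Of the arrays numbered 2, Stau1 IP 2 stood apart from its labelled group. Control IP 2 correlated slightly more highly with Stau1 IP 1 and 3 than with the other control IPs. The differences of the named members are therefore given with and without the arrays numbered 2. Normalized signals were compared over 9884 targets that every array detected. The normalized log2 signals of Stau1 IP 1 and Stau1 IP 3 correlated at 0.995, whereas those of Stau1 IP 2 correlated with them at 0.937 and 0.939 and with control IP 1 and 3 at 0.955 and 0.971. Control IP 2 correlated at 0.982 and 0.983 with Stau1 IP 1 and 3, and at 0.975 and 0.980 with the other control IPs (Pearson's r across targets, which are not independent replicates). Control IP 1 and 3 correlated with each other at 0.981, so control IP 2 was hardly further from them than they were from each other. The centre of the negative controls, read from the detection p-values, was 89.6 and 88.5 on these arrays and 77.6 to 85.1 on the other 4, and the arrays each detected 11635 to 13054 targets at a detection p under 0.05. The groups were kept as labelled, and no array was moved to the other group. STAU1 itself, a check that the array cannot make cleanly because its probes may also read the plasmid's transcript, gave 2499, 3246 and 2758 in the control IPs and 2845, 1857 and 3130 in the Stau1 IPs. Its difference was -0.17 (log2, limma, adjusted p = 0.867), and 0.04 without the arrays numbered 2 (adjusted p = 0.920). VIM, KRT8, KRT18 and NEFL, which this line is known to express, were detected on all 6 arrays and PAX2 on 1, while PTPRC, CD3E and HBB, known from blood cells, were detected on none.

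Of the 51 members, 35 were detected on at least 3 arrays, a share of 68.6% against 33.7% of all targets, and 29 were detected on all 6. They comprised 23 ZBTB, 8 ZSCAN and 4 ZKSCAN genes. ZBTB6, ZBTB7A and ZSCAN22 were detected on 1 or 2 arrays. The remaining 13 members (25.5%, against 59.5% of all targets) were detected on none, with signals of 67.3 to 114, close to the centre of the negative controls. Among them were ZSCAN4 and ZSCAN10, which are known from early embryos and pluripotent stem cells, and ZBTB20 and ZBTB32, which are best known from liver, brain and lymphocytes. The others were ZBTB1, ZBTB10, ZBTB12, ZBTB26, ZBTB37, ZBTB38, ZBTB41, ZKSCAN1 and ZSCAN1. Whether the undetected members follow the cell type was not tested. A signal close to the negative controls sets only an upper bound on what was recovered. At a detection p under 0.01 the members found on at least 3 arrays numbered 28, and 21 were found on none. A median of 41 beads stood behind a target on each array. Between the arrays of a group, the 35 detected members had a median SD of 0.34 (control IPs) and 0.28 (Stau1 IPs) in normalized log2 signal. The labels do not say whether the 3 IPs of a group came from separate cultures, so p-values measure only the spread between these samples.

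With all 6 arrays, no member differed between Stau1 and control IPs after adjustment over all 37879 targets. The count at an adjusted p under 0.05 was 0 higher and 0 lower by limma, and it was 0 for all targets as well (0% higher and 0% lower). The study's methods name a fold above 2.5 with a t-test p under 0.05. Here these cutoffs were applied to the unadjusted limma p of the values normalized as described below. The members again gave 0 higher and 0 lower, where 0.0264% of all targets were higher and 0.0343% lower. At an unadjusted p under 0.05 alone, 4 members were higher (ZBTB3, ZSCAN21, ZBTB10 and ZSCAN22), a share of 7.84% beside a background of 4.38%, and 1 was lower (ZSCAN12), 1.96% beside 5.16%. Among detected items only, the order of the higher shares was the opposite, with 5.71% of the 35 members detected on at least 3 arrays against 9.53% of the 12774 targets so detected, and the lower shares were 2.86% against 11.5%. ZBTB10 and ZSCAN22 were detected on 0 and 1 arrays. The normalized signals of the groups did not overlap for 6 members that were higher in the Stau1 IPs (11.8%, against 6.71% of all targets) and for 2 that were lower (3.92%, against 7.8%). Of these 8, only ZBTB3, ZBTB45 and ZSCAN21 were detected on at least 3 arrays, which is 8.57% of detected members higher, against 9.51% of detected targets, and 0% lower, against 12.2%. A single member tested by an exact two-sided permutation over 3 against 3 arrays cannot go below p = 0.1, which was the value for these 3 genes.

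ZBTB3, a little-studied BTB factor, read 123, 176 and 180 on control IP 1, 2 and 3 and 224, 187 and 245 on Stau1 IP 1, 2 and 3. All 3 Stau1 IPs lay above all 3 control IPs, and in the deposited signals Stau1 IP 2 was the nearest to them. Its difference of 0.74 ± 0.24 (log2, ± SE) was the largest positive one among detected members on all 6 arrays, but the adjusted p was 0.398 by limma, and it was 0.69 ± 0.32 without the arrays numbered 2 (adjusted p = 0.361). ZSCAN21, a SCAN factor known from proliferating cerebellar granule neurons, read 329, 402 and 343 in the control IPs and 530, 334 and 480 in the Stau1 IPs. The deposited signals overlapped through Stau1 IP 2, and the groups were apart only after normalization, by 0.35 ± 0.11 (adjusted p = 0.378), and by 0.37 ± 0.13 on the 4 arrays without those numbered 2 (adjusted p = 0.228). ZBTB45 read 302, 465 and 402 against 463, 533 and 555, apart after normalization by 0.48 ± 0.20 (adjusted p = 0.539) and by 0.32 ± 0.17 on the 4 arrays (adjusted p = 0.426). After normalization Stau1 IP 2 was the highest of the Stau1 IPs in ZBTB3 and ZBTB45. None of these differences passed the adjusted test.

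**Figure D1:**
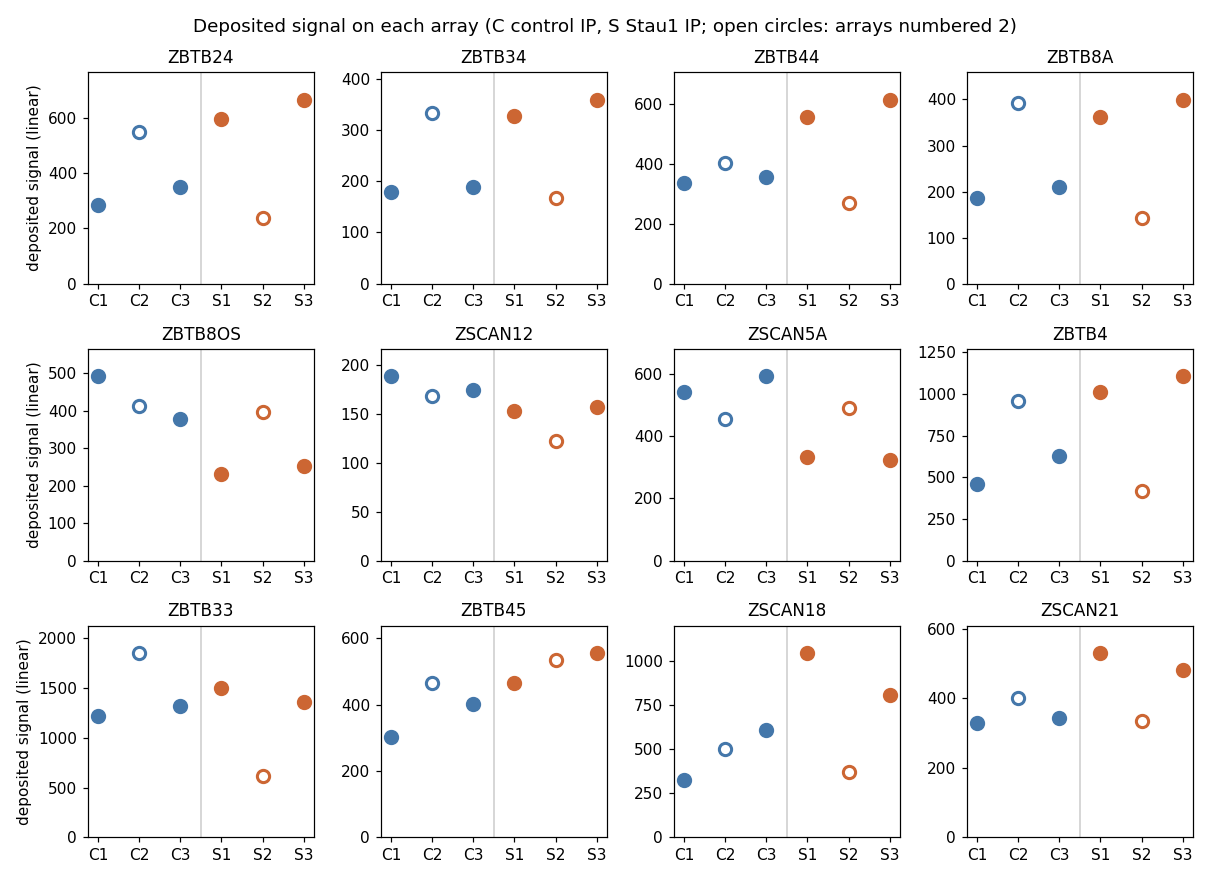
Deposited signal (linear, not background-corrected) of 12 members on the 3 control IP arrays (C1 to C3) and the 3 Stau1 IP arrays (S1 to S3), 1 point per array, with the arrays numbered 2 as open circles and each panel on its own axis from 0. In ZBTB24, ZBTB34, ZBTB8A and ZBTB4 the open control circle lies with the filled Stau1 points and the open Stau1 circle with the filled control points, whereas in ZBTB45 and ZSCAN12 the open circles do not change places.

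Without the arrays numbered 2, that is with control IP 1 and 3 against Stau1 IP 1 and 3, 7 members passed the adjusted test. ZBTB24, ZBTB34, ZBTB44 and ZBTB8A were higher in the Stau1 IPs, 4 members or 7.84% against 3.34% of all targets. ZBTB8OS, which is no zinc finger factor, ZSCAN12 and ZSCAN5A were lower, 3 members or 5.88% against 2.56%. All 7 were detected members, and since detected targets passed more often than dim ones, the closer background is 9.02% of the 12774 detected targets higher, beside 11.4% of the 35 detected members, and 7.02% lower, beside 8.57%. The members' shares were near that background. At a fold above 2.5 with an unadjusted limma p under 0.05 the members counted 0 higher, where 1.2% of all targets did. They counted 1 lower (ZBTB8OS, the archease gene), 1.96% where 0.277% of all targets did. Among detected targets 3.39% were higher, beside 0% of detected members, and 0.775% lower, beside 2.86%, which is this 1 gene. These 4 arrays were picked with the values of all 6 known, so the p-values that follow describe the 4 arrays and carry no account of that choice.

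ZBTB24, a factor whose loss causes an immunodeficiency with hypomethylated centromeric repeats, read 284, 549 and 350 on control IP 1, 2 and 3 and 594, 237 and 666 on Stau1 IP 1, 2 and 3. Stau1 IP 1 and 3 were the highest of the 6 arrays and Stau1 IP 2 the lowest. Without the arrays numbered 2 it was higher by 0.86 ± 0.12 (log2, limma, adjusted p = 0.028), a ratio of 1.82, and with all 6 arrays the difference was 0.29 ± 0.36 (adjusted p = 0.911). ZBTB8A read 187, 392 and 209 in the control IPs and 363, 144 and 400 in the Stau1 IPs, and was higher by 0.91 ± 0.11 on the 4 arrays (adjusted p = 0.020) against 0.11 ± 0.49 on all 6. Here control IP 2 lay above Stau1 IP 1, and Stau1 IP 2 was the lowest array. ZBTB34 read 179, 333 and 188 against 328, 167 and 359, counted as detected on 4 arrays, and was higher by 0.88 ± 0.10 (adjusted p = 0.017) against 0.35 ± 0.32 on all 6. Again both arrays numbered 2 sat among the values of the other label. ZBTB44 read 337, 404 and 355 against 557, 271 and 615, and was higher by 0.57 ± 0.095 (adjusted p = 0.039) against 0.35 ± 0.23 on all 6 arrays. In ZBTB44 only Stau1 IP 2 left its group, falling below every control IP, while control IP 2 stayed nearer to the control IPs than to Stau1 IP 1 and 3.

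ZBTB8OS, the archease gene, read 492, 412 and 377 on control IP 1, 2 and 3 and 231, 396 and 252 on Stau1 IP 1, 2 and 3. Stau1 IP 1 and 3 were the lowest arrays, and Stau1 IP 2 fell inside the range of the control IPs. The difference was -1.39 ± 0.20 without the arrays numbered 2 (log2, limma, adjusted p = 0.027), which is 2.62 times lower and the only member past the fold of 2.5, and -0.76 ± 0.44 with all 6 (adjusted p = 0.709). ZSCAN5A, a SCAN factor, read 542, 455 and 593 against 332, 490 and 323, with a difference of -1.25 ± 0.12 on the 4 arrays (adjusted p = 0.014), 2.38 times lower, and -0.61 ± 0.39 on all 6. As in ZBTB8OS, Stau1 IP 1 and 3 were the lowest arrays and Stau1 IP 2 fell inside the range of the control IPs. In the deposited signals Stau1 IP 2 was above control IP 2 in ZSCAN5A and below it in ZBTB8OS. ZSCAN12 read 188, 168 and 174 against 153, 122 and 157, and differed by -0.70 ± 0.13 on the 4 arrays (adjusted p = 0.046) and by -0.63 ± 0.24 on all 6 (unadjusted p = 0.040, adjusted p = 0.487). In ZSCAN12 Stau1 IP 2 was the lowest array, so the deposited signals of the groups did not overlap, although the normalized ones did through control IP 2.

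The genes that passed among the 4 arrays held up unequally when the processing changed. ZBTB34 and ZSCAN5A passed the adjusted test under all 9 other settings of the limma fit, ZBTB24 and ZBTB8A under 8, ZBTB44 under 7, ZBTB8OS under 6 and ZSCAN12 under 2. None of the 7 passed the methods' t-test after adjustment (0.251 to 0.389), and each passed in 2 of the 4 fits that left out 1 more array, those that kept both Stau1 IP 1 and 3.

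**Figure D2:**
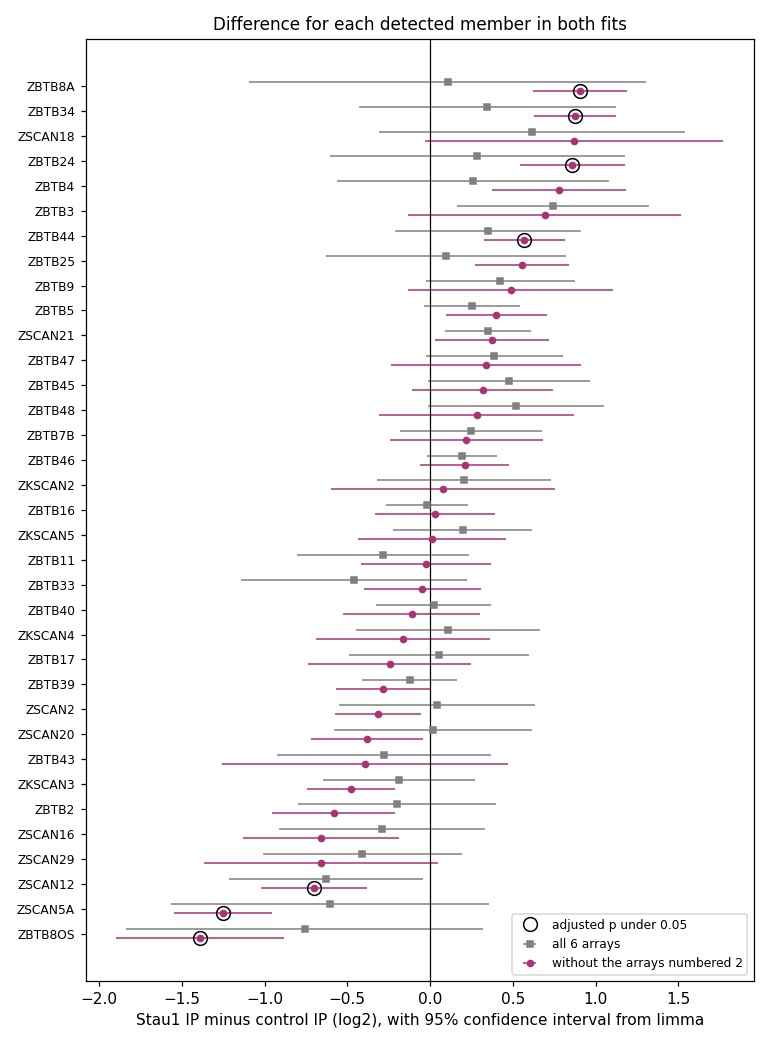
Difference between Stau1 and control IPs (log2, x axis) for the 35 members detected on at least 3 arrays, with 95% confidence intervals from limma for all 6 arrays (grey squares) and without the arrays numbered 2 (filled circles, ringed where the adjusted p is under 0.05). The 7 ringed members are at both ends, 4 above 0 and 3 below it, and their grey intervals on all 6 arrays are wider, crossing 0 for all of them but ZSCAN12.

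Several bright members did not pass in either fit. ZBTB33, also called Kaiso, which binds methylated DNA and the catenin CTNND1, had the highest mean signal of the set, at 1220, 1848 and 1320 in the control IPs and 1503, 616 and 1355 in the Stau1 IPs. The arrays numbered 1 and 3 lay between 1220 and 1503, with control IP 2 above and Stau1 IP 2 far below them. The difference was -0.46 ± 0.28 on all 6 arrays (limma, adjusted p = 0.731) and -0.05 ± 0.14 without the arrays numbered 2 (adjusted p = 0.940), where the 95% interval ran from -0.40 to 0.31. ZBTB4, another factor that binds methylated DNA, read 460, 958 and 627 against 1014, 418 and 1106, the same order of arrays as in ZBTB24. It reached 0.78 ± 0.16 on the 4 arrays, just outside the threshold (adjusted p = 0.060), and 0.26 ± 0.34 on all 6. ZBTB25, at 106, 140 and 108 against 141, 103 and 142, was just outside it too, at 0.55 ± 0.11 (adjusted p = 0.059), against 0.10 ± 0.30 on all 6 (adjusted p = 0.975).

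ZBTB48, a factor that binds telomeric repeats, read 657, 821 and 1073 against 1198, 1227 and 1213. All Stau1 IPs lay above all control IPs before normalization, and the difference was 0.52 ± 0.22 on all 6 arrays (limma, adjusted p = 0.539) and 0.28 ± 0.23 on 4. ZBTB9 read 510, 840 and 845 against 1076, 757 and 1065, with Stau1 IP 2 inside the control range (0.42 ± 0.18 on all 6, adjusted p = 0.565, and 0.49 ± 0.24 on 4). ZBTB17, known as MIZ1, a partner of MYC, read 336, 396 and 477 against 427, 406 and 409, all 3 Stau1 IPs within the range of the control IPs. Its difference was 0.05 ± 0.22 on all 6 arrays and -0.24 ± 0.19 on 4. ZBTB5 read 261, 416 and 316 against 412, 289 and 453, and ZBTB46, a marker of classical dendritic cells, read 204, 281 and 207 against 256, 216 and 294. In the deposited signals of both genes control IP 2 exceeded Stau1 IP 1, and Stau1 IP 2 was the lowest Stau1 IP. After normalization control IP 2 lay below Stau1 IP 1 in ZBTB5, and Stau1 IP 2 was the highest Stau1 IP in ZBTB46. The differences of ZBTB5 and ZBTB46 on the 4 arrays were 0.40 ± 0.12 (limma, adjusted p = 0.151) and 0.21 ± 0.10 (adjusted p = 0.406). On all 6 arrays they were 0.25 ± 0.12 and 0.19 ± 0.09.

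The SCAN genes differed widely among themselves. ZSCAN18 read 326, 500 and 611 in the control IPs and 1045, 370 and 808 in the Stau1 IPs, and its 0.87 ± 0.35 on the 4 arrays was close in size to that of ZBTB24 but had a larger error (limma, adjusted p = 0.284), and it was 0.62 ± 0.38 on all 6. Stau1 IP 1 and 3 were the highest arrays and control IP 1 and Stau1 IP 2 the lowest. ZSCAN16 read 489, 423 and 422 against 396, 391 and 351, with every Stau1 IP below every control IP before normalization and a difference of -0.29 ± 0.25 on all 6 arrays (adjusted p = 0.849) and -0.66 ± 0.18 on 4 (adjusted p = 0.130). ZSCAN29, detected on 3 arrays, read 103, 126 and 132 against 93.4, 117 and 111, and its difference of -0.41 ± 0.25 on all 6 arrays (adjusted p = 0.724) and -0.66 ± 0.28 on 4 (adjusted p = 0.299) passed in neither. ZSCAN2 read 230, 269 and 255 against 241, 281 and 253, a spread within which the groups could not be told apart by eye, and its difference was 0.04 ± 0.24 on all 6 arrays and -0.31 ± 0.10 on 4.

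Of the ZKSCAN genes, which carry both domains, none passed a test in either fit at the adjusted threshold. ZKSCAN3, a repressor of autophagy genes, read 305, 304 and 351 in the control IPs and 290, 266 and 315 in the Stau1 IPs, and had the lowest value of the family on the 4 arrays, -0.48 ± 0.10 (limma, adjusted p = 0.070), against -0.19 ± 0.19 on all 6 (adjusted p = 0.873). ZKSCAN4 read 453, 489 and 665 against 624, 515 and 574, and ZKSCAN2 read 190, 288 and 295 against 269, 257 and 317. In both the Stau1 IPs lay inside or near the wide range of the control IPs, in which control IP 1 was lowest. The differences on all 6 arrays and on 4 were 0.11 ± 0.23 and -0.16 ± 0.21 for ZKSCAN4, and 0.20 ± 0.21 and 0.08 ± 0.26 for ZKSCAN2. ZKSCAN5, detected on 4 arrays, gave 0.20 ± 0.17 on all 6 and 0.01 ± 0.17 on 4, and ZKSCAN1 was detected on no array.

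By family, the median difference of detected members was 0.19 for the 23 ZBTB genes, ZBTB8OS included, on all 6 arrays and 0.28 without the arrays numbered 2, with 16 and 15 of them above 0. For the 8 ZSCAN genes it was -0.14 and -0.52, with 4 and 2 above 0, and for the 4 ZKSCAN genes 0.15 and -0.08. Over all 35 detected members the median was 0.11 with 23 above 0 on all 6 arrays, and 0.03 with 19 above 0 on 4, beside -0.00043 and -0.05 for all detected targets. The members above 0 were 65.7% and 54.3%, beside 50.0% and 45.7% of detected targets. The difference between the families was not tested. The level that counts as no change moved with the scaling of the 4 arrays: the median of detected targets was -0.05 after quantile normalization, 0.08 after median centring and 0.17 with no normalization between arrays, and the members passing the adjusted test were 4 higher and 3 lower, 5 higher and 2 lower, and 7 higher and 2 lower, in that order.

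**Figure D3:**
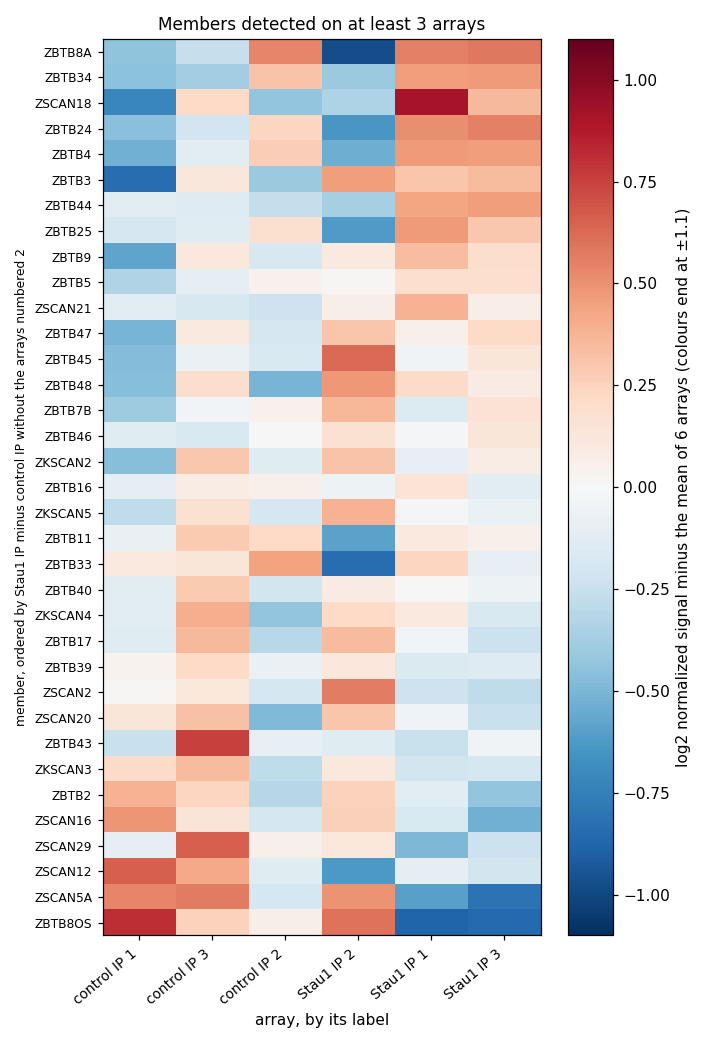
Normalized log2 signal of the 35 detected members on each array, as the difference from that member's mean over the 6 arrays (colour, red high and blue low), with members ordered by their difference without the arrays numbered 2 and those arrays placed in the middle. The top members (ZBTB8A to ZBTB25) are red on Stau1 IP 1 and 3, and most of them are blue on Stau1 IP 2, while ZSCAN5A and ZBTB8OS at the bottom are blue on Stau1 IP 1 and 3 and red on Stau1 IP 2.

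How far the arrays numbered 2 lay from their own group was measured for each member. After normalization control IP 2 was nearer to the mean of Stau1 IP 1 and 3 than to that of control IP 1 and 3 for 21 of 35 detected members (60.0%), where this held for 49.7% of detected targets. Stau1 IP 2 was nearer to control IP 1 and 3 for 20 members (57.1%, against 59.4%), and both held at once for 16 (45.7%, against 36.0%). ZBTB8A showed the widest gaps of this kind: control IP 2 was 0.88 above control IP 1 and 3, and Stau1 IP 2 was 1.55 below Stau1 IP 1 and 3 (a difference of -1.55, log2). For ZBTB24 the same gaps were 0.57 and -1.17, for ZBTB34 0.73 and -0.88, and for ZBTB4 0.59 and -0.999. In the genes that were lower on the 4 arrays the gaps ran the other way, at -0.47 and 1.46 in ZBTB8OS and -0.75 and 1.20 in ZSCAN5A. ZBTB44 and ZSCAN18 moved on Stau1 IP 2 alone (-0.81 and -0.98), with control IP 2 at -0.13 and -0.18. In ZSCAN12 both arrays were below the rest of their group, at -0.67 and -0.48. Whether the tubes or labels of these arrays were exchanged was not tested.

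**Figure D4:**
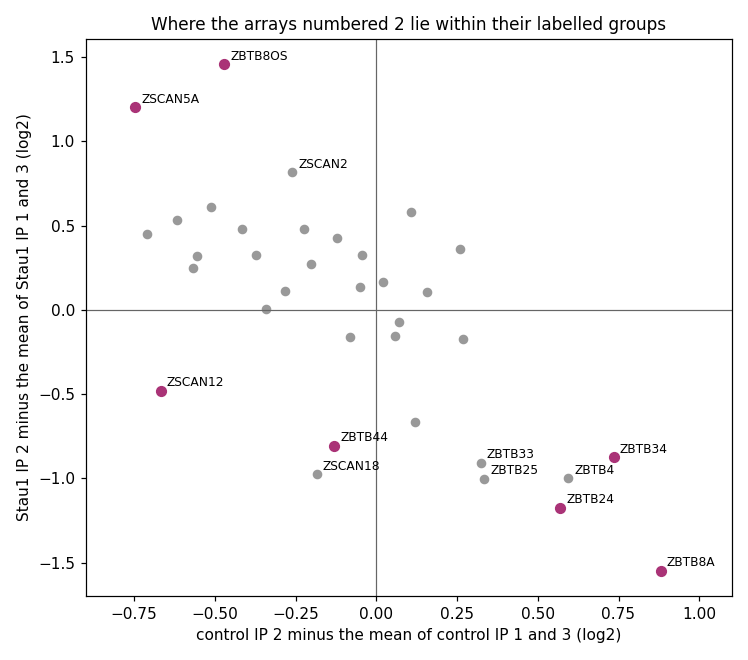
For each of the 35 detected members, control IP 2 minus the mean of control IP 1 and 3 (x axis, log2) against Stau1 IP 2 minus the mean of Stau1 IP 1 and 3 (y axis, log2), with the 7 members that passed the adjusted test without these arrays in purple. ZBTB8A, ZBTB24 and ZBTB34 lie at the lower right, ZBTB8OS and ZSCAN5A at the upper left, and ZBTB44 and ZSCAN12 at the lower left. The 7 were chosen by arrays that enter both axes.

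Members that are neighbours in the genome did not share a direction in every case. By the gene order of RefSeq (GRCh38.p14), to which all 51 members matched by symbol, ZBTB8A and ZBTB8OS are adjacent on chromosome 1. Their differences were 0.91 and -1.39 on the 4 arrays, and 0.11 and -0.76 on all 6. ZBTB34 and ZBTB43, adjacent on chromosome 9, gave 0.88 and -0.40 on the 4 arrays, the latter short of the threshold (limma, adjusted p = 0.693). On all 6 they gave 0.35 and -0.28. On chromosome 6, which holds 8 members, ZSCAN16, ZKSCAN4, ZKSCAN3 and ZSCAN12 lie within 1 cluster, with 0 coding genes between the last pair. On the 4 arrays they gave -0.66, -0.16, -0.48 and -0.70, of which only ZSCAN12 passed. On all 6 they gave -0.29, 0.11, -0.19 and -0.63, and none passed. ZSCAN18 and ZSCAN1 on chromosome 19, with 1 coding gene between them, gave 0.87 and -0.12 on the 4 arrays. On all 6 they gave 0.62 and -0.09, and ZSCAN1 was detected on no array.

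The related genes under other symbols and the partners of these proteins were counted in the same fits. Of 12 further BTB zinc finger genes on the table, 7 were detected on at least 3 arrays, 0 passed on all 6 arrays, and 2 were higher and 0 lower on the 4. The median difference of the detected ones was -0.05 and -0.0044. One was HIC2, a BTB repressor related to the tumour suppressor HIC1, at 906, 3785 and 1185 in the control IPs and 4489, 849 and 5676 in the Stau1 IPs. Its difference of 2.19 ± 0.15 on the 4 arrays (limma, adjusted p = 0.008) was larger than that of any member (0.86 ± 0.81 on all 6, adjusted p = 0.864), and its arrays fell in the order seen in ZBTB24, with both arrays numbered 2 beside the other label's. The other was PATZ1, which was detected on no array. Of 35 further SCAN genes that the array measured, 25 were detected, with medians of -0.05 on all 6 arrays and -0.10 on the 4. On the 4 arrays MZF1, ZNF444 and ZNF500 were higher and ZNF174, ZNF202, ZNF215 and ZNF232 lower, against 0 on all 6. For every list the background on the 4 arrays was 3.34% of all targets higher and 2.56% lower. Among targets detected on at least 3 arrays it was 9.02% and 7.02%. The counts of the lists were not tested against these shares. Among the partners, on the 4 arrays TRIM28, the corepressor of KRAB factors, was higher, and no partner passed on all 6 (a count of 0).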

How the data were processed

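Groups came from the sample labels. For 6 Illumina HumanWG-6 V3 arrays read with BeadStudio, the authors deposited each target's signal intensity with its probes combined and no normalization, together with bead numbers, bead standard errors and detection p-values, which place the deposited intensity among the array's negative controls. None of the deposited values was on the log2 scale. From the intensities, normexp correction was run with the negative controls' centre read from the 200 targets whose detection p lay closest to 0.5 (their median signal) and their SD from those closest to 0.16, followed by an offset of 16, quantile normalization and log2. Stau1 and control IPs were compared by lmFit and eBayes of limma 3.58.1 (R 4.3.3), two-sided, with Benjamini-Hochberg adjustment over 37879 targets and no filter, with all 6 arrays and without the arrays numbered 2. The steps of the methods (variance stabilization, robust spline) are not stated in full and were rebuilt with mgcv 1.9.3 as an alternative. So was limma's neqc, which inferred negative-control means of 157 to 184, above the 77.6 to 89.6 used here. The remaining alternatives were no background correction, no normalization or median centring between arrays, an offset of 50, a detection filter, a replicate block, a trend in eBayes, the methods' t-test and leaving out arrays. Some genes of the marker and partner lists are not reported here. Signals on every array are given for up to 20 of the brightest members detected on all 6 arrays, members past a threshold in either fit, and the 5 highest and 5 lowest differences of each fit among members detected on at least 3 arrays. The rule named 24 members, and other members named with a value, such as ZBTB25, were added after their values were seen. The members, gene lists and rules were chosen with earlier results of these data known. Plots were drawn with Python 3.11.15 and matplotlib 3.10.9.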

Additional observations from a re-analysis of the deposited data

How the results depend on the processing

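On all 6 arrays the members passing either threshold stayed at 0 under each alternative run that kept the 6 arrays and in each fit that left out 1 array, where the median difference of detected members ranged from 0.055 to 0.18; without both arrays numbered 2 the counts became 4 higher and 3 lower at the adjusted p and 1 lower at the fold of 2.5. With the replicate number as a block the counts on all 6 arrays were 0, and on the 4 arrays 3 higher and 2 lower (ZBTB44 and ZSCAN12 were lost); the deviations of samples sharing a number correlated at -0.41, -0.74 and -0.39, values that are not independent since the deviations within a group sum to 0, and no source says that a number marks a shared culture or day, so no pairing was used. The alternatives to the fit of 4 arrays were chosen after seeing the data. There neqc gave 2 higher and 1 lower, the rebuilt transformation 1 lower, no normalization 7 higher, an offset of 50 1 lower, and the methods' t-test 0 and 0; ZBTB8OS missed the fold of 2.5 (a count of 0) under neqc, the rebuilt transformation, no background correction, no normalization, median centring and the offset of 50. The median of detected members was 0.27 with no normalization and 0.19 with centring. Leaving out 1 of the 4 gave 0 to 12 higher and 0 to 5 lower at the adjusted p, 0 to 1 higher and 0 to 2 lower at the fold of 2.5, and medians of -0.066 to 0.19; both counts at the adjusted p were 0 without Stau1 IP 1 and without Stau1 IP 3, the 12 came without control IP 3 and the 5 without control IP 1, and the lone array was assumed to vary like the other group. Differences that changed sign, in none of which the adjusted test was passed, were on all 6 arrays ZBTB17 (-0.012 by the rebuilt transformation, -0.24 without both arrays numbered 2), ZSCAN2 (-0.012 by the rebuilt transformation, -0.0013 by centring, -0.31 without both) and ZKSCAN4 (-0.16 without both), and when 1 array was left out ZBTB8A (-0.16 to 0.61), ZBTB17 (-0.10 to 0.25), ZKSCAN4 (-0.083 to 0.33) and ZSCAN2 (-0.23 to 0.19). On the 4 arrays they were ZBTB17, ZBTB33, ZKSCAN4 and ZSCAN2 with no normalization (0.066, 0.17, 0.13 and 0.013), ZBTB33 and ZKSCAN4 with centring (0.090 and 0.050), and with 1 array left out ZBTB33 (-0.21 to 0.11), ZBTB48 (-0.043 to 0.61), ZKSCAN2 (-0.30 to 0.45) and ZKSCAN4 (-0.42 to 0.094). The cause of these changes was not tested. Signal over background limits the 16 members detected on fewer than 3 arrays, for which no difference was detectable beyond the noise of the negative controls at the adjusted threshold.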
